A study of Mus musculus with 11 samples.

Results

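DNA methylation was described at the loci of 10 genes whose products fill the granules and secretions of neutrophils and monocytes: Mpo, Prtn3, Elane, Ctsg, Lyz2, Lyz1, S100a8, S100a9, Camp and Ltf. The members were the CpGs listed by any library in 7 windows of the mm9 mouse genome around these genes. They numbered 289 CpGs out of 1480817 listed on chromosomes 1 to 19 and X, and 245 of the 289 were listed in all 11 libraries. The windows were chr11:87590000-87635000 for Mpo, chr10:79330000-79360000 for Prtn3 and Elane, chr14:56700000-56740000 for Ctsg, chr10:116700000-116740000 for Lyz2 and Lyz1, chr3:90465000-90510000 for S100a8 and S100a9, chr9:109735000-109765000 for Camp, and chr9:110910000-110950000 for Ltf.

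The samples were cultures of ER-Hoxa9-Lys-GFP cells, which carry a hormone-dependent Hoxa9 fusion and a green fluorescent reporter tied to lysozyme, from C57BL/6 mice, and were profiled by reduced representation bisulfite sequencing (RRBS). While estradiol (E2) is in the medium the fusion is active and the cells stay immature, and its removal lets them mature along the myeloid path. All groups were grown in the same medium with serum and medium conditioned with stem cell factor, and differed in E2. Cells kept in E2 throughout gave 1 library. Of the other 10, 2 libraries each came from cells without E2 for 120 h and from cells without E2 for 24, 40, 56 or 72 h that were then given E2 again for 96, 80, 64 or 48 h. Hours without E2 and hours of return change together, so their parts cannot be told apart. The labels name neither a clone nor separate cultures, and all p-values rest on the spread among these 11 libraries, which may be technical. The files hold no expression values, so the cell type could not be checked against marker transcripts, and the state of these genes' RNA was not measured.

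Azurophil granules, made early in neutrophil development, hold the peroxidase of Mpo and the serine proteases of Prtn3, Elane and Ctsg. Specific granules come later and hold the antimicrobial peptide precursor of Camp and the iron-binding lactoferrin of Ltf, while lysozyme cuts bacterial cell walls and the S100a8 and S100a9 products form the abundant cytosolic complex calprotectin. Methylated CpGs near a gene's start tend to go with silence, and CpG-dense starts are mostly unmethylated in all cells, so methylation that changes with maturation is usually sought at lineage genes with CpG-poor starts.

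RRBS reads only CpGs near the cutting sites of a restriction enzyme, commonly MspI, which cuts at CCGG, and the labels do not name the enzyme used. The promoters of the members, taken from RefSeq (GRCm38.p6) as the 250 bases before to the 50 after each start, were searched for CpGs and for CCGG. Sites outside these bases were not looked for, so the count does not settle which promoters the assay can read. All 10 genes were in the table. Their promoters held 1 to 8 CpGs, with a median of 3.5 against 7 over 32851 RefSeq mouse promoters. Lyz2 had 1, Mpo, Lyz1 and S100a9 had 2, Camp had 3, Prtn3, S100a8 and Ltf had 4, Elane had 6 and Ctsg had 8. The site CCGG, which reads the same on both strands, was found in 4 of the 10 (Prtn3, Elane, Camp and Ltf) and in 52.8% of all promoters. The promoters of Lyz2 (chr10:117282223-117282522, minus strand) and Mpo (chr11:87793534-87793833, plus strand) are shown because they hold no CCGG and few CpGs, with every CpG in capitals.

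Lyz2: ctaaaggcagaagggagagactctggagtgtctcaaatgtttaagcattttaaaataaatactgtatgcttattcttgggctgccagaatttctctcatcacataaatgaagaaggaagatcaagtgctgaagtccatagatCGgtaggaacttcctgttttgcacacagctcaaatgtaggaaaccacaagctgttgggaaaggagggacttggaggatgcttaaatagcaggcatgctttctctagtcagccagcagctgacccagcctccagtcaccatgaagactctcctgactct

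Mpo: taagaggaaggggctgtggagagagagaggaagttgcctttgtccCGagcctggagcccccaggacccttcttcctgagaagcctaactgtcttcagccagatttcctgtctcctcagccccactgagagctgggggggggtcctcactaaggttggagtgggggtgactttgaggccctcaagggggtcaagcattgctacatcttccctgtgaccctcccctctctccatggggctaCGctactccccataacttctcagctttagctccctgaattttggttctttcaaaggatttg

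No annotation of mm9 was used here, so a cluster could not be placed in an exon, an intron or a gene's end. Apart from clusters tied to a promoter below, whether a cluster belongs to a member or to another gene in the window was not worked out. Promoters were instead placed on the listed CpGs by spacing, a step added after the data were seen. A promoter counted as placed where at least 6 listed CpGs all fell on its CG positions and no other place in the region fitted as well. This placed promoters of other genes below 6 of the 7 windows and above 6. The nearest were Supt4a and Mks1 around the Mpo window, Palm and Med16 around Prtn3 and Elane, Gm31963 and Cpm around Lyz2 and Lyz1, Sdr39u1 and Parp4 around Ctsg, and Tmie with Als2cl and Lrrfip2 around Ltf. The S100a8 and S100a9 window had Ints3 below it and no placed promoter above it, and the Camp window had Cdc25a above it.

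A single promoter was placed inside a window by this rule, that of Nme6, a nucleoside diphosphate kinase gene at the low edge of the Camp window. In 10 of its 17 CG positions a listed CpG was found, at mm9 chr9:109735058-109735357. Of the members, the Ltf promoter fitted at 1 place in its window, mm9 chr9:110921546-110921845, through 2 listed CpGs. By itself a fit of 2 CpGs is weak, since 58.3% of the promoters of chromosome 9 had one somewhere in that window, but the distances from this place to all 6 placed promoters of neighbouring genes equalled those in RefSeq, with a difference of 0 bp. The Prtn3 promoter also fitted at 1 place through 2 listed CpGs, but that place shared its distance with 0 of 16 neighbours and was not used. The Lyz2 promoter, with its 1 CpG, could not be placed this way, and the other 7 fitted nowhere in their windows with 2 or more listed CpGs. Places for these promoters were not inferred from their RefSeq distances to placed neighbours. No tested cluster was thus tied to the start of a member, and the tests below cannot be read as tests of the members' promoters. Both placed promoters (RefSeq GRCm38.p6, plus strand, chr9:109832544-109832843 for Nme6 and chr9:111019042-111019341 for Ltf) are shown as the CpG-dense and the CpG-poor start that the assay did reach, with the listed CpGs in capitals.

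Nme6: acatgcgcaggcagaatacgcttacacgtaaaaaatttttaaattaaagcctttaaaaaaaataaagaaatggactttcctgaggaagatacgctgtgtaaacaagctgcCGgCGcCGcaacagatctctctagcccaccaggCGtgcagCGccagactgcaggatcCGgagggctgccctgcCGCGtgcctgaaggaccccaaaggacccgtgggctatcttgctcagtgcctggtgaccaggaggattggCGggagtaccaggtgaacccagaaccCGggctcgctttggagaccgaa

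Ltf: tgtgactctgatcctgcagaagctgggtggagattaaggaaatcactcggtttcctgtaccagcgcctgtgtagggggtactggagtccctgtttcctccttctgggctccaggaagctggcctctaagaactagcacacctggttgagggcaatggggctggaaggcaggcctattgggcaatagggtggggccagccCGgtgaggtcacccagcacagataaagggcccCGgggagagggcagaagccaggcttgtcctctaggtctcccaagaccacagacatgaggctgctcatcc

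Both capital CpGs of Ltf lie in CCGG sites. They form cluster 5 of the Ltf window (chr9:110921745-110921778), which was too thinly covered to test. Over all libraries the first was methylated in 19.7% of 61 reads and the second in 50% of 52 reads. Levels of the pair were 66.7% of 6 observations in continuous E2, 21.1% of 19 after 24 h and 80% of 5 after 40 h. They were 40% of 10 after 56 h, 25% of 28 after 72 h and 33.3% of 45 at 120 h. The 95% Wilson intervals were wide, at 30 to 90.3% in continuous E2, 8.5 to 43.3% after 24 h and 21.4 to 47.9% at 120 h. No test was run on the pair, so whether the groups differed there was not settled. The 10 listed CpGs of Nme6 lay in Camp cluster 1, described below.

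The CpGs were chained into clusters wherever listed CpGs lay at most 200 bp apart, and clusters are numbered along the chromosome within each window. A level is the percentage of methylated reads over all CpGs of a cluster, so it also moves with how a library's reads fall on those CpGs. An observation is 1 read at 1 CpG, so a read over several CpGs counts more than once, and the Wilson intervals of levels cover counting error only. The windows held 79 clusters, 20 of them a single CpG. A cluster was covered, and could be tested, with at least 2 CpGs and 10 observations in each library, which 34 clusters met. The remaining 45 had 9 to 555 observations over all libraries, and their levels ranged from 0 to 100%. Library depth ran from 8234933 to 46899896 observations, and the windows took 1649 to 10052 of them. The 40 h and 56 h libraries were the shallowest, at up to 10317379 observations, and no test was set between them.

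**Figure D1:**
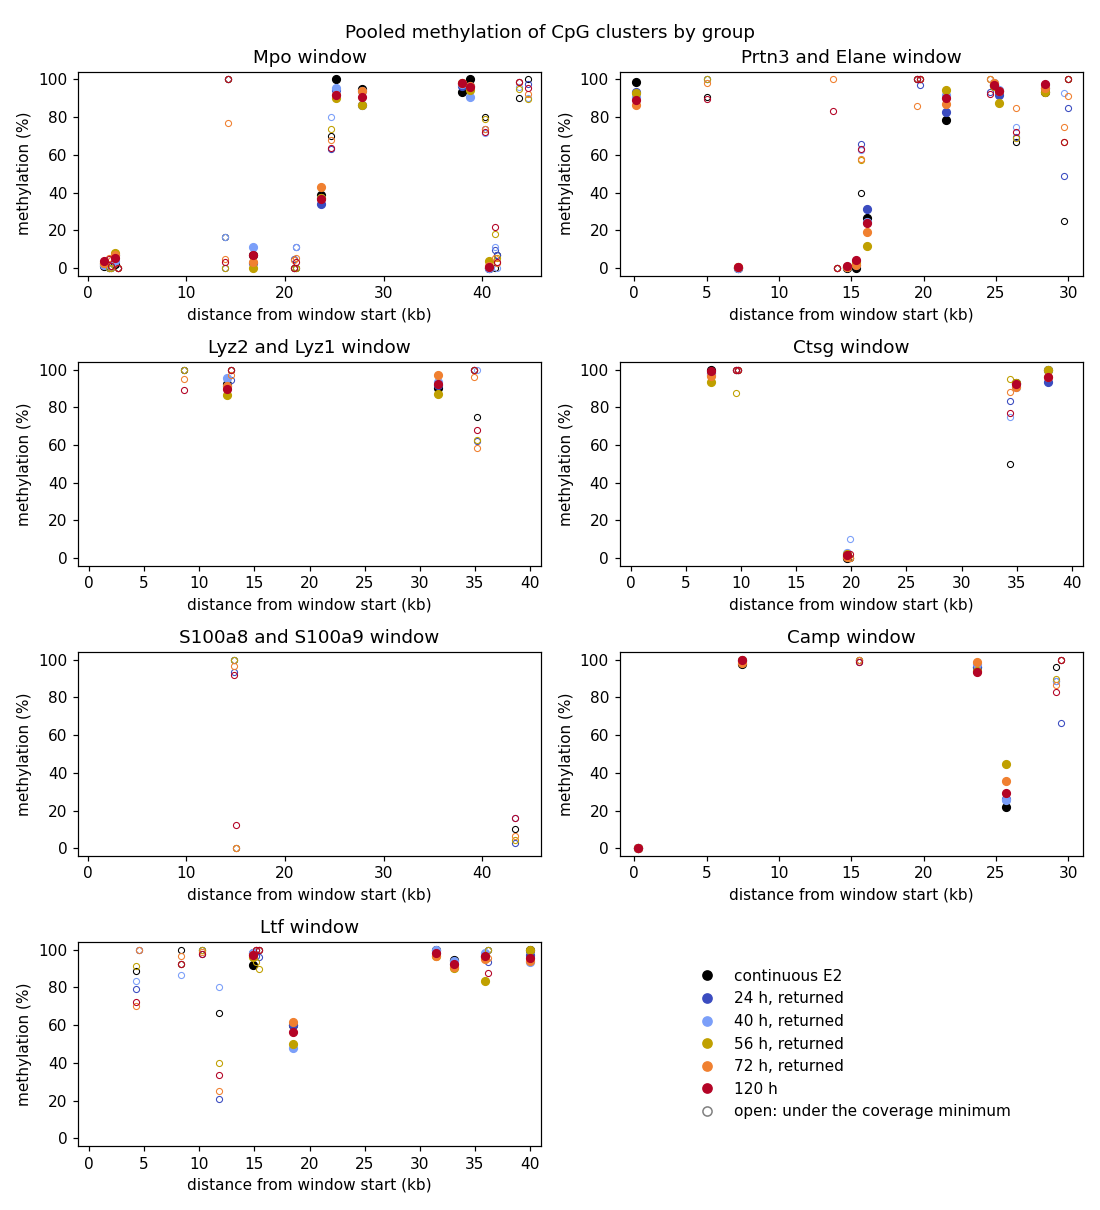
Pooled methylation (%) of each CpG cluster of the 7 windows against its distance from the window start (kb), with 1 point per group and cluster. Filled points are the 34 covered clusters and open points the others, and points of all 6 groups lie close together at most clusters while neighbouring clusters can differ from near 0 to near 100%.

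The members split sharply by level and little by group. Of the 34 covered clusters, 9 were low (under 20%), at 0.18 to 5.93%, 4 were partly methylated, at 24.1 to 57.5%, and 21 were high (above 80%), at 87.1 to 99.1%. Low clusters made up 26.5% of the covered clusters of the windows and 12% of those on all chromosomes, partly methylated ones 11.8% and 15.1%, and high ones 61.8% and 72.9%. These are shares of windows, which can hold other genes, as the Camp window holds the Nme6 promoter. Summed over the 7 windows, the level was 51.6% in continuous E2, 49.8% after 24 h, 49.7% after 40 h, 50.8% after 56 h, 51.0% after 72 h and 51.2% at 120 h. The 40 h libraries alone spanned 47.1 to 53.2%, more than the whole span of the groups. Such sums also move with how the reads of a library fall on low and high clusters.

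None of the 34 clusters passed the test in any comparison. The test was a quasi-binomial model of the reads with 1 mean per group, fitted over 128983 clusters of all chromosomes with its spread moderated across clusters, and adjusted by the Benjamini-Hochberg method at 0.05. For 120 h against 24 h, 0 of 34 were called where 0.0519% of all clusters were. For 120 h against continuous E2, 0 were called, with 0.00233% over all clusters. For 72 h against 24 h, 0 were called, with 0.0411%, and for the trend with hours without E2, 0 with 0.0612%. With such backgrounds a count of 0 in 34 is no result about these loci, and the intervals of the differences carry the information. The lowest adjusted p of the 34 was 0.848, 0.903, 0.829 and 0.795 in the 4 comparisons. At an unadjusted p under 0.05 the counts were 2 (5.78% of all clusters), 3 (4.02%), 2 (5.88%) and 4 (5.46%). By limma on the logit of methylation 0 were called, and 0 (3.9% of all clusters), 4 (6.42%), 2 (4.55%) and 2 (4.18%) passed an unadjusted p under 0.05.

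Differences between 120 h and 24 h at the 34 clusters ran from -7.39 to 7.53 percentage points, with a median of 0.33 points, against -0.15 points over all clusters. None reached 10 points, which 1.84% of all clusters did. The 95% intervals of these differences came from the reads scaled for the spread between libraries. They lay within 10 points of 0 on both sides at 24 of the 34, and their bounds reached -18.9 and 16.3 points. None of the partly methylated clusters was among the 24, so that count covers low and high clusters only. Its share over all clusters was not computed. Just 1 interval lay apart from 0. Both libraries of 1 group lay beyond both of the other at 9 clusters, where 32.9% of all clusters did so. For 120 h against the single library kept in E2, differences ran from -9.70 to 11.9 points with a median of 0.16, against -0.63 over all clusters. There 1 of 34 reached 10 points (8.57% of all clusters), and at 23 both 120 h libraries lay on 1 side of the E2 library (73.9% of all). For 72 h against 24 h they ran from -11.9 to 9.54 points, 1 reached 10 points (2.31%), and 15 did not overlap (32.1%). The comparisons share libraries, so they are not independent of each other.

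**Figure D2:**
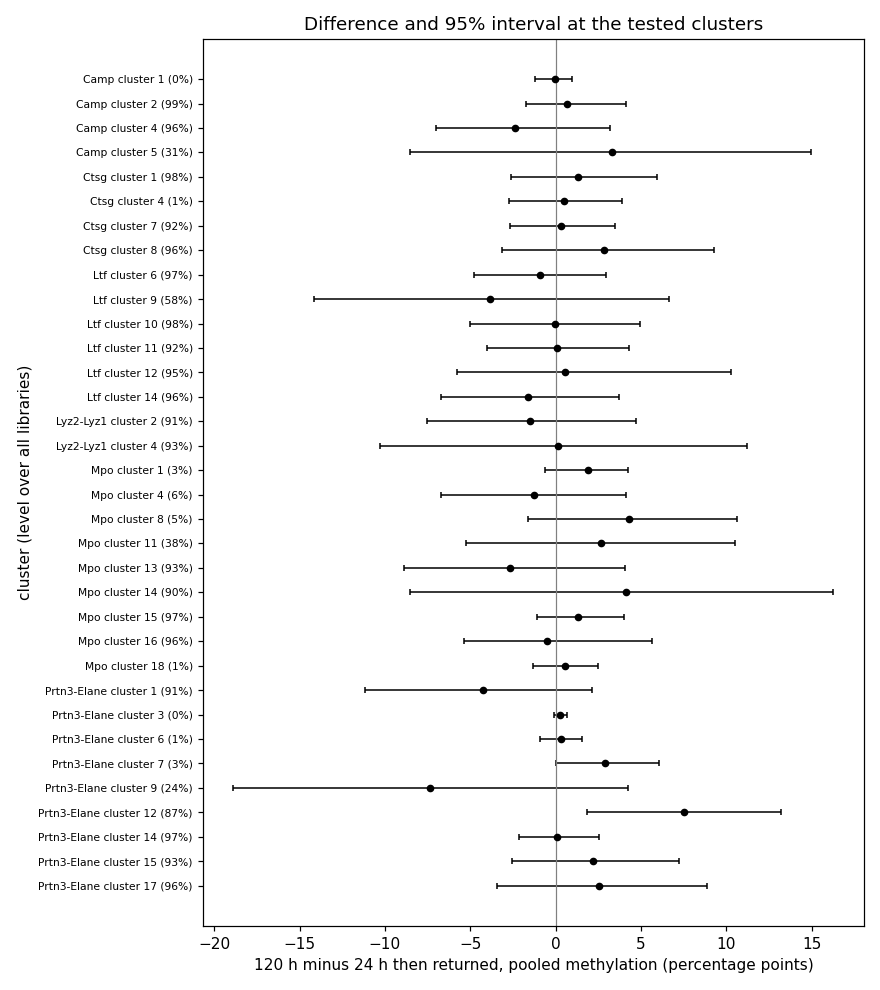
Difference in pooled methylation between 120 h without E2 and 24 h then returned (percentage points, points) with its 95% interval (bars) at the 34 tested clusters, whose level over all libraries is in brackets. The differences lie between -7.39 and 7.53 points, and the interval of Prtn3-Elane cluster 12 is the 1 apart from 0.

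The window of Mpo, the peroxidase gene whose mRNA marks granulocyte precursors, had 75 CpGs in 22 clusters, 9 of them covered. From the low end the window was unmethylated at chr11:87591477-87593037, where 5 clusters had 0 to 5.93%. The single CpGs at 87603932 and 87604195 had 4.12% and 95.4%. Cluster 8 (chr11:87606650-87606834) was low at 4.58%, and the methylated reads all came from its first CpG, with 7.26% against 0% of 210 reads at the other. Then came the partly methylated cluster 11, a thinly covered cluster 12 at 66.5%, and 4 covered high clusters from chr11:87615166 on. Beyond these the level dropped from 95.9% at cluster 16 (chr11:87628772-87628873) to 0.74% at cluster 18 (chr11:87630650-87630834).

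The deepest cluster of the Mpo window was cluster 15 (chr11:87627696-87628167, 9 CpGs, 2176 observations), which was highly methylated in each library. Its level was 93.4% in continuous E2, 96.3 and 96.8% after 24 h, 96.5 and 98.1% after 40 h, 95.9 and 100% after 56 h, 98.2 and 97.7% after 72 h, and 97.1 and 99.6% at 120 h. The E2 library was the lowest of the 11 and the 120 h libraries lay above those of 24 h, but the difference of 1.31 points had an interval of -1.09 to 4.02 and an adjusted p of 0.929. Against continuous E2 the difference was 4.58 points (0.22 to 13.3, unadjusted p = 0.0612, adjusted p = 0.903).

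Cluster 11 of the Mpo window (chr11:87613390-87613842, 1415 observations) was chosen after its values were seen, as one of the 4 partly methylated clusters. It had 38.7% in continuous E2, 27.5 and 36.1% after 24 h, 38.6 and 35.4% after 40 h, 36.5 and 37.5% after 56 h, 39.4 and 46.9% after 72 h, and 34.3 and 39.8% at 120 h. Both 72 h libraries lay above both 24 h libraries, by 8.89 points in the pooled level (0.30 to 17.3, unadjusted p = 0.0429, adjusted p = 0.847). At 120 h the difference was 2.68 points (-5.26 to 10.5, adjusted p = 0.962), and the libraries overlapped. Within the cluster the level varied by CpG more than by group: over all libraries it was 64.4% at chr11:87613455, 49.5% at 87613500 and 4.31% at 87613698. In bulk DNA such a level does not show whether cells or alleles differ.

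**Figure D3:**
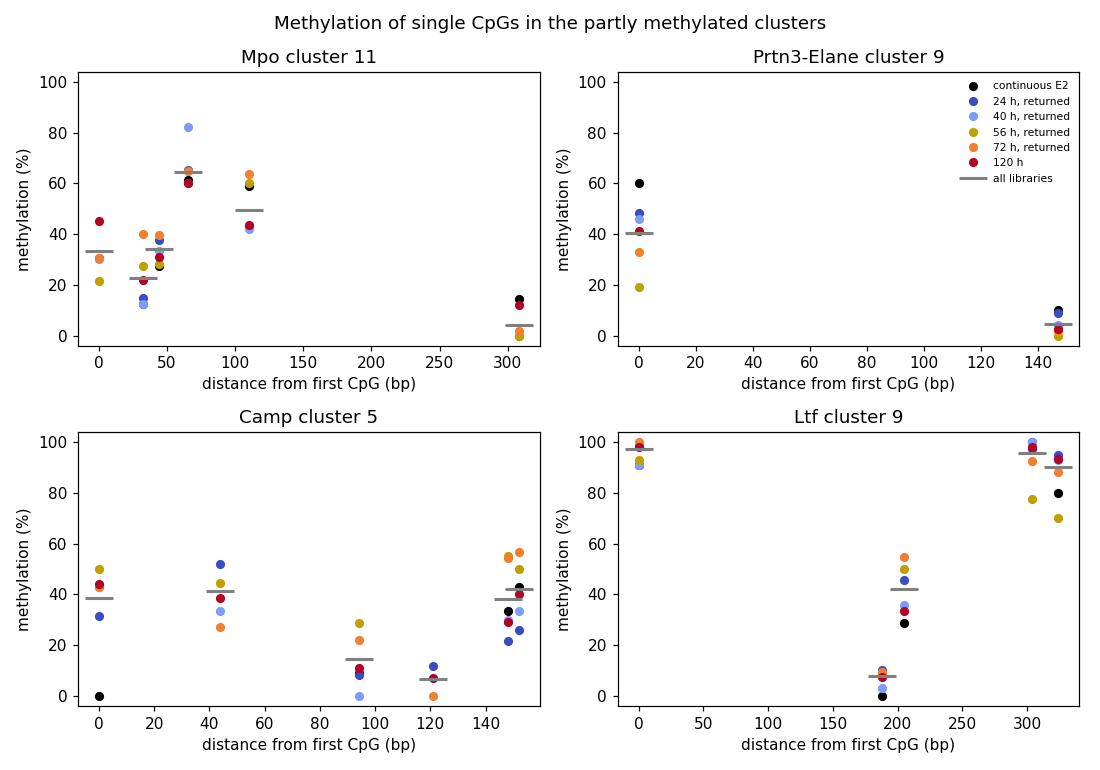
Methylation (%) of single CpGs in the 4 partly methylated clusters against distance from the first CpG of the cluster (bp), with coloured points for the groups and grey bars for all libraries together. CpGs with under 20 reads in all, and groups with under 5 reads at a CpG, are not drawn. CpGs of 1 cluster differ, as in Ltf cluster 9 where the bars run from 7.80 to 97.5%.

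Prtn3 and Elane, neighbouring genes for proteinase 3 and neutrophil elastase, shared a window of 91 CpGs, the most of the 7. Its low part held the deepest cluster of all windows, cluster 3 (chr10:79337001-79337324), with 30 CpGs and 7898 observations and a level of 0.28%. The level was 0% in continuous E2 (0 of 422, which allows up to 0.90% by the Wilson interval), 0.18 and 0% after 24 h, 0.44 and 0% after 40 h, 0.74 and 0.32% after 56 h, 0.73 and 0.27% after 72 h, and 0.23 and 0.40% at 120 h. All libraries thus lay under 1%. The 120 h minus 24 h difference was 0.25 points (-0.10 to 0.67, adjusted p = 0.882) and the 72 h minus 24 h difference 0.50 points (0.08 to 1.09, unadjusted p = 0.0115, adjusted p = 0.829).

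Clusters 6 and 7 of this window (chr10:79344496-79344858 and chr10:79345239-79345379) were low too, at 0.61 and 2.62%. At cluster 7 the level was 0% in continuous E2, 1.35 and 1.61% after 24 h, 4 and 3.23% after 40 h, 0 and 5.17% after 56 h, 1.60 and 2.11% after 72 h, and 4.74 and 4.07% at 120 h. Both 120 h libraries lay above both of 24 h, by 2.88 points (-0.00143 to 6.07, unadjusted p = 0.0405, adjusted p = 0.859), while those of 40 h lay close to them. At 120 h 13 of the 17 methylated reads came from 1 of the 5 CpGs, at chr10:79345353. Cluster 7 was chosen after its values were seen. From chr10:79349500 to the end of the window, 4 covered clusters followed, all of them high.

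Between the low and the high part lay cluster 9 (chr10:79345989-79346137), a pair of CpGs. The first had 40.3% of 303 reads and the second 4.42% of 249. Together they had 26.7% in continuous E2, 24 and 32.6% after 24 h, 18.8 and 27.3% after 40 h, 5.26 and 18.8% after 56 h, 14.6 and 28.3% after 72 h, and 23.2 and 24.6% at 120 h. Replicates differed by up to 13.7 points here. For 72 h minus 24 h the difference was -11.9 points (-23.3 to 0.14, adjusted p = 0.851) and for 120 h minus 24 h it was -7.39 points (-18.9 to 4.27, adjusted p = 0.917). Without the second 24 h library the latter was -0.22 points, and with a gap of 500 bp, which joins the pair to its neighbours, -0.14.

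Cluster 12 (chr10:79351471-79351590, 5 CpGs) had the lowest p of the windows for 120 h against 24 h. Its level was 78.5% in continuous E2 (Wilson interval 67.0 to 86.7%), 82.7 and 83.0% after 24 h, 92.9 and 90.9% after 40 h, 90.7 and 97.7% after 56 h, 87.1 and 86.3% after 72 h, and 91.5 and 89.0% at 120 h. Both libraries of 40, 56, 72 and 120 h lay above both of 24 h, and the E2 library was the lowest. The 120 h mean was 90.2% ± 1.80 (SD, n = 2) and the 24 h mean 82.9% ± 0.19 (SD, n = 2). The pooled difference was 7.53 points (1.85 to 13.2), with an unadjusted p of 0.0108 that adjustment over all clusters raised to 0.848. Against continuous E2 it was 11.9 points (1.97 to 25.4, adjusted p = 0.903). Of its 5 CpGs, the one at 79351567 was at 100% after 24 h and at 120 h, and the one at 79351589 had 69.2 and 73.0%. The other 3, at 79351471, 79351474 and 79351492, had 85.9, 85.5 and 79.5% after 24 h and 96.3, 93.6 and 91.3% at 120 h, and lying this close they share reads.

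Cluster 1 of the same window (chr10:79329925-79330254) crosses the window's edge, and 4 of its 7 CpGs lie inside. It had 98.8% in continuous E2, 92.1 and 93.9% after 24 h, 91.7 and 90.5% after 40 h, 91.7 and 94.3% after 56 h, 85.7 and 87.7% after 72 h, and 87.2 and 93.0% at 120 h. The E2 library was the highest of all 11 and the 72 h libraries were among the lowest 3. For 120 h minus continuous E2 the difference was -9.70 points (-16.0 to -2.04), the lowest unadjusted p of the windows in that comparison at 0.00731, with an adjusted p of 0.903. The 120 h minus 24 h difference was -4.25 points (-11.1 to 2.12, adjusted p = 0.909), and -0.35 points without the first 120 h library.

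**Figure D4:**
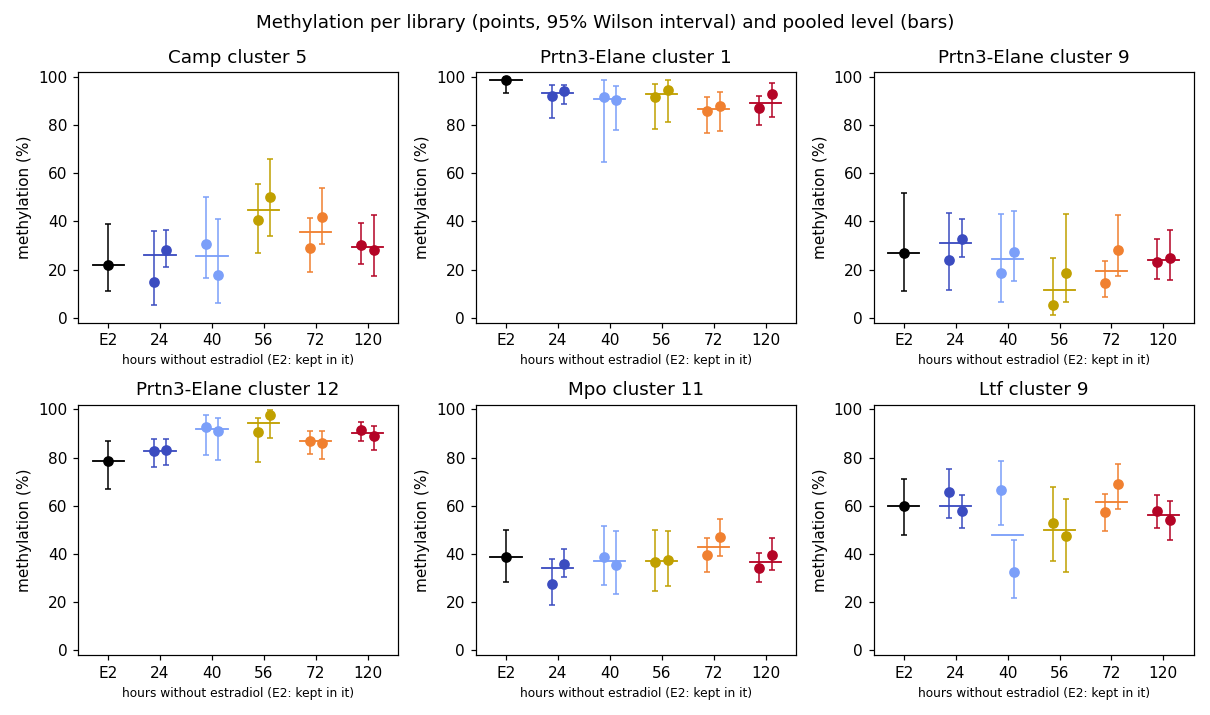
Methylation (%) of 6 clusters in each library (points with 95% Wilson intervals) by hours without E2, with bars at the pooled level of the group; E2 marks the library kept in it. At Prtn3-Elane cluster 12 the 24 h libraries have 82.7 and 83.0% and the 120 h libraries 91.5 and 89.0%, while at Ltf cluster 9 the 40 h libraries have 66.7 and 32.7%.

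The window of Ctsg, the gene of the protease cathepsin G, had 33 CpGs in 8 clusters. There 1 low cluster, cluster 4 (chr14:56719528-56719628), stood at 1.21% between high clusters, and the single CpG after it (chr14:56719833) had 1.65%. Cluster 4 had 0% in continuous E2, 1.52 and 0.65% after 24 h, 0 and 4.65% after 40 h, 0 and 4.55% after 56 h, 0.69 and 1.00% after 72 h, and 0.87 and 1.96% at 120 h. No library there reached 5%. It was chosen after its values were seen. Cluster 7 (chr14:56734585-56735336, 19 CpGs, 2620 observations), the deepest of the window, had 92.9% in continuous E2, 93.0 and 91.9% after 24 h, 90.9 and 90.4% after 40 h, 95.3 and 90.8% after 56 h, 91.0 and 90.9% after 72 h, and 92.8 and 92.2% at 120 h. The 24 h and 120 h libraries overlapped, with a difference of 0.33 points (-2.66 to 3.48, adjusted p = 0.996).

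The window of Lyz2 and Lyz1, the tandem lysozyme genes of mouse, had 14 CpGs in 6 clusters over 40 kb. The first of these genes is the form made by macrophages and neutrophils. Both covered clusters were high. Cluster 2 (chr10:116712454-116712635, 4 CpGs) had 92.4% in continuous E2, 94.0 and 90.4% after 24 h, 95.7 and 95.5% after 40 h, 82.4 and 91.1% after 56 h, 86.9 and 96.0% after 72 h, and 91.7 and 86.6% at 120 h. The replicates of 72 h alone spanned most of that range. The difference of -1.50 points between 120 h and 24 h had an interval of -7.51 to 4.73 (adjusted p = 0.976). At cluster 4 (chr10:116731620-116731688) the pooled level was 90.0% in continuous E2, 92.0% after 24 h, 97.3% after 72 h and 92.2% at 120 h, and the interval for 120 h minus 24 h was -10.3 to 11.2 points. The Lyz1 promoter fitted no pair of listed CpGs here, and the single CpG of the Lyz2 promoter allowed no such search.

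The window of S100a8 and S100a9, the paired genes of the calprotectin subunits, had 4 listed CpGs over 45 kb and no covered cluster. The deepest was cluster 3 (chr3:90508258-90508346), where 270 of 275 observations came from 1 of its 2 CpGs, so that it is nearly a single CpG. It had 10% of 10 observations in continuous E2, 0% of 14 and 3.70% of 54 after 24 h, 0% of 6 and 23.1% of 13 after 40 h, 0% of 16 and 12.5% of 8 after 56 h, 5.26% of 38 and 8.70% of 23 after 72 h, and 18.8% of 64 and 10.3% of 29 at 120 h. Pooled, 120 h stood at 16.1% (Wilson interval 10 to 24.9%) and 24 h at 2.94% (0.81 to 10.1%). Both 120 h libraries lay above both 24 h libraries, by 13.2 points in the pooled level and by 7.40 without the first 120 h library. With 2 libraries under 10 observations the cluster missed the coverage minimum. At a minimum of 5 observations it was among 46 tested clusters of the windows, of which 0 were called. The single CpG at chr3:90479834 had 94.6% over 112 reads, and the one at 90480077 had 14 reads in all.

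The window of Camp, the gene of the cathelicidin precursor, had 34 CpGs in 7 clusters. Cluster 1 (chr9:109735168-109735337), which holds the 10 listed CpGs of the Nme6 promoter shown above, was unmethylated. Its level was 0% in 8 of 11 libraries, 0.63 and 0.23% after 24 h, and 0.72% in 1 of the 120 h libraries. The 120 h minus 24 h difference was -0.05 points (-1.19 to 0.96, adjusted p = 0.999). Clusters 2 and 4 were high, at 99.1 and 95.6%.

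Camp cluster 5 (chr9:109760587-109760740, 7 CpGs) was partly methylated and, among the 34 covered clusters, had the widest span over the groups continuous E2, 24 h, 72 h and 120 h, at 13.8 points. Its level was 21.9% in continuous E2, 15.0 and 27.9% after 24 h, 30.8 and 17.6% after 40 h, 40.5 and 50% after 56 h, 28.8 and 41.8% after 72 h, and 30 and 28.3% at 120 h. The E2 library held 32 observations and the first 24 h library 20, and their Wilson intervals were 11 to 38.8% and 5.24 to 36.0%. Both 72 h libraries lay above both of 24 h, by 9.54 points in the pooled level (-3.30 to 22.2, adjusted p = 0.894). For 120 h minus 24 h the difference was 3.31 points (-8.54 to 15.0, adjusted p = 0.972), but it ran from 1.58 points without the first 24 h library to 14.5 without the second, which holds most of that group's reads. With each CpG weighted alike it was -0.92 points, the opposite direction.

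The window of Ltf, the lactoferrin gene, had 38 CpGs in 14 clusters, none of them low. Of the 6 covered, 5 were high. The deepest was cluster 11 (chr9:110942942-110943284, 2044 observations), with 94.3% in continuous E2, 89.9 and 93.6% after 24 h, 100 and 90.0% after 40 h, 94.5 and 84.9% after 56 h, 91.2 and 90.2% after 72 h, and 93.1 and 91.8% at 120 h. The 120 h minus 24 h difference was 0.06 points (-4.05 to 4.32, adjusted p = 1).

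Cluster 9 of the Ltf window (chr9:110928320-110928645) was the partly methylated one, at 57.5%, and was chosen after its values were seen. It had 60.0% in continuous E2, 65.9 and 57.8% after 24 h, 66.7 and 32.7% after 40 h, 52.8 and 47.4% after 56 h, 57.4 and 68.9% after 72 h, and 57.9 and 54.2% at 120 h. The second 40 h library was the lowest of the 11 and stood 33.9 points under the first. Its 5 CpGs had 97.5, 7.80, 42.2, 95.9 and 90.1% over all libraries, in order along the chromosome. Methylated and nearly unmethylated CpGs thus stood side by side. At 40 h, 33 and 28 of the 100 observations fell on the CpGs at 7.80 and 42.2%, against 88 and 57 of 286 after 24 h. These counts pool both libraries of a group, so they do not show how the reads of each 40 h library fell on the CpGs. How far the mix of reads made up the gap between the 40 h libraries was not tested. The 120 h minus 24 h difference was -3.83 points (-14.1 to 6.66, adjusted p = 0.958).

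Sharp steps between neighbouring CpGs were looked at over all windows, a count added after the data were seen. Among 137 pairs of neighbouring CpGs of a cluster with at least 100 reads each, 5 differed by 40 points or more, or 3.65%, against 4.12% of 667809 pairs on all chromosomes. They lay in Mpo clusters 11 and 12 and in Ltf clusters 1 and 9, 2 of them in the last. The closest pair was chr11:87614697 and 87614715, at 81.8 and 40.6%, 18 bp apart. Single CpGs with at least 20 reads in both groups, also counted after the data were seen, differed by 10 points or more between 120 h and 24 h at 21 of 230, or 9.13%, against 7.05% of 1034937 CpGs on all chromosomes. Of the 21, 12 were higher and 9 lower at 120 h. Between 72 h and 24 h the share was 7.01% of 214, against 7.84%.

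Clusters entered the account by 2 rules: the 4 covered ones that spanned 10 points or more over continuous E2, 24 h, 72 h and 120 h (Prtn3-Elane clusters 1, 9 and 12 and Camp cluster 5) and the deepest of each window. Other clusters were named, after their values were seen, to describe the course of levels along a window. The spans just inside that limit were 11.9 points at Prtn3-Elane clusters 9 and 12, and those just outside were 8.89 points at Mpo cluster 11 and 8.46 at Mpo cluster 13. Of the 4, 2 were partly methylated. Among the 45 clusters under the coverage minimum, 19 spanned 10 points or more, on as few as 16 observations. Median spans were 1.38 points over the 9 low, 10.4 over the 4 partly methylated and 4.32 over the 21 high clusters, and 22 of the 34 spanned under 5 points. Spans were not computed over all chromosomes, so these counts do not set the windows apart from other loci.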

How the data were processed

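RRBS had been run on 11 libraries. Positions are given in mm9, the build named per the submitters' processing notes. An aligner, a caller, trimming and duplicate handling are not given in the sources used here. Each deposited table lists CpGs with the count of methylated and of all reads, and a score from the authors of 0 to 1000 that equalled 1000 times the methylated share in 100% of lines. Only the counts were used. CpGs at most 200 bp apart on chromosomes 1 to 19 and X were chained into 321732 clusters; 129137 had at least 2 CpGs and 10 observations in every library. Leaving out 154 whose reads were all of 1 kind left 128983 for testing.

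A logistic model with quasi-binomial spread gave 1 mean per group over all 11 libraries, or for the trend a slope on hours with continuous E2 at 0 h, and deviance F tests were two-sided. Dispersions were moderated as in squeezeVar of limma 3.58.1, here in Python (numpy 2.4.6, scipy 1.17.1), and kept at 1 or above. The lone E2 library was taken to vary like the others. The code was tested on simulated data, with changes at 120 h put into partly methylated clusters. The test of 120 h against 24 h called 34 of 100 clusters changed by 20 points and 95 of 100 changed by 40 points. Levels have Wilson and differences Newcombe 95% intervals, the latter with reads divided by the dispersion. The rule for named clusters took the deepest per window and covered ones that span 10 points over continuous E2, 24 h, 72 h and 120 h; others were named after their values were seen. The genes, windows and lists were chosen with earlier results of these data known. Other granule genes listed for counts are not analysed here, as no annotation of mm9 was used. Alternatives changed the coverage minimum, the gap, the test, the libraries in the fit, the dispersion limit, the deepest sites and the replicate block. Each library was also left out. Lifting the dispersion limit could change nothing, since the moderated dispersions all lay above 1.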

Additional observations from a re-analysis of the deposited data

How the results depend on the processing

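Under each alternative run, 0 clusters of the windows were called, with 4 to 46 of them tested; without the E2 library the comparison with continuous E2 could not be run. The genome-wide background was less steady. Called clusters for 120 h against 24 h, 120 h against continuous E2, 72 h against 24 h and the trend, in that order, were 67, 3, 53 and 79 as reported. A minimum of 30 observations gave 21, 1, 13 and 25, one of 5 observations gave 57, 3, 28 and 75, and CpGs with 10 reads in every library gave 4, 0, 0 and 5. A gap of 100 bp gave 23, 2, 6 and 20, and one of 500 bp gave 80, 15, 72 and 88. Limma on the logit (offset 0.5) gave 0 in all 4, where 5025, 8285, 5869 and 5393 clusters passed an unadjusted p under 0.05. Fits of only the libraries compared gave 0, 0 and 0 in the first comparisons. A trend over the returned libraries alone, without continuous E2 and 120 h, gave 6. Leaving out the deepest 1% of CpGs gave 65, 2, 50 and 76. The cause of these moves was not tested.

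Leaving out 1 library gave 0 to 67, 0 to 3, 0 to 53 and 10 to 78. The 67 and 53 came from leaving out the E2 library. As the only library of its group it adds nothing to the spread, so that omission could not change either count. Leaving out any other library gave at most 54 for 120 h against 24 h and at most 34 for 72 h against 24 h. For 120 h against 24 h the counts were 0 and 4 without the second or first 24 h library, 1 and 2 without the first or second 120 h library and 8 without either 72 h library. For 72 h against 24 h the count was 0 or 1 without any library of 24, 72 or 120 h, 17 without a 56 h and 34 without a 40 h library. For 120 h against continuous E2 it was 0 without any library of 24, 56, 72 or 120 h. For the trend it was 10 and 46 without the second or first 24 h library, 15 and 11 without the first or second 120 h library, 39 and 52 without the first or second 72 h library, and 50 without the E2 library.

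Same-numbered libraries did not deviate together: the correlation of replicate differences between groups ran from -0.004 to 0.0156. The replicate block gave 0, 0, 0 and 17 called clusters, and 0 in the windows. At the 11 named clusters the alternatives gave 111 values of the 120 h minus 24 h difference, from -8.78 to 16.1 points. Part of these could not differ from the main value, since a cluster that meets another coverage minimum keeps all its reads. Leaving out the deepest 1% of CpGs also returned the main value at each of the 11. The difference moved by more than the replicate spread 16 times and changed sign 10 times, which are thus not shares of 111 separate checks. The sign changes were at Camp clusters 1 and 5, Ctsg cluster 7, Ltf cluster 11 and Lyz2-Lyz1 cluster 2. Since none was called, a sign change ends no call. Prtn3-Elane cluster 12 kept its sign, at 6.10 to 8.63 points when 1 library was left out. Depth limits what could be seen: the median interval of a difference was 10.3 points wide.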
